A study of Homo sapiens with 16 samples.

Results

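SW480 cells transduced with estrogen receptor beta (ERB), which ESR2 encodes, were compared with parental SW480 cells by mRNA sequencing. The libraries were taken from the labels by cell line, transduction and treatment, which gave 2 libraries of SW480 with ERB and 2 of parental SW480, 4 of the 16 libraries of the series. All 4 came from untreated cells grown in DMEM with serum. The parental cells had not been transduced, so ERB and the transduction itself differ together in this contrast and cannot be told apart. SW480 with an empty vector was sequenced too. These 2 libraries do not enter the contrast, but they entered the estimate of the spread. For the same contrast in a second line, 2 libraries of SW620 with ERB and 2 of parental SW620 were used, all untreated. SW620 with an empty vector, and SW620 with ERB after 24 h in DMSO or with 10 nM estradiol, entered only the estimate of the spread and the levels shown for orientation. The promoter that drives ERB, the number of clones behind a transduced line and whether libraries I and II came from separate cultures are not stated in the labels. P-values therefore measure the spread between libraries, pooled over the 8 groups of the series, and this spread may be technical.

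SW480 is a colon adenocarcinoma line from a primary tumour, and SW620 was derived from a lymph node metastasis of the same patient. ERB is a nuclear receptor that binds estradiol, pairs with a second receptor molecule and binds DNA at estrogen response elements. It can also act on genes through other factors bound there, such as AP-1 and NF-kB. In the colon it is the main estrogen receptor of the epithelium.

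ESR2 itself was read first, as a check of the labels. The parental SW480 libraries held 2 and 2 ESR2 reads, and the libraries with ERB held 142 and 185, which is 10.1 and 12 CPM (reads scaled to a common library size) of the library total. The empty vector libraries of SW480 held 2 and 4 reads. Per read in the library, ESR2 was 96.4-fold higher with ERB, with an exact 95% counting interval of 37.3 to 356. The log2 fold change was 7.1 ± 0.52 (SE) with an adjusted p of 0.000309 in edgeR's quasi-likelihood test. SW620 with ERB held 162 and 187 reads against 0 and 0 in its parental cells. As a share of all reads these were 10.3 and 9.98 CPM. In both lines ESR2 was read well above the parental level in both libraries with ERB.

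Total counts ran from 14104263 to 18948283 in the 4 libraries and from 12743940 to 18948283 in all 16. Intervals and floors from read counts cover counting error only. The 2 libraries of a group differed beyond counting noise in every group. Their chi-square per degree of freedom was 155 in parental SW480, 62.5 in SW480 with ERB and 251 in SW480 with the empty vector, against 6.6 to 42.0 in the 5 SW620 groups. The spread behind the p-values is pooled over all 8 groups, so it does not describe the SW480 libraries alone.

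The SW480 libraries also did not share 1 line profile. In all, 300 genes were at 5 CPM or more in parental SW480 and at least 8-fold higher there than in parental SW620. Relative to their mean in parental SW480, these genes stood at a median of 17.1% in ERB library I (interquartile range 5.07 to 42.8%) and 21.0% in library II (10.7 to 34.1%). In the SW480 empty vector libraries the median was 2.2 and 2.1%, and in the SW620 libraries it lay between 1.41 and 2.02%. Conversely, 35 genes higher in parental SW620 by the same rule stood at 54.4 and 48.3% of their SW620 level with ERB, against 4.58 and 5.59% in parental SW480. Within the genes at 5 CPM or more in both parental SW480 libraries, 37 had 0 reads in both parental SW620 libraries, and of these 1 and 0 had 0 reads in the ERB libraries. One of them, WNT5A, a secreted WNT ligand, had 1725 and 7242 reads in parental SW480 and 55 and 208 with ERB. The libraries labelled SW480 with ERB thus lay between the parental lines in the genes that tell the lines apart. The part of this difference in the results below was not tested. Levels in parental SW620 or in the SW480 empty vector libraries are given beside some of these results.

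Library levels followed the GC content of the transcripts. In the tenth of the genes with the lowest GC content (median 38.8%), the median log2 level relative to the mean of all libraries was 0.30 and 1.81 in the parental libraries and -1.79 and -0.82 with ERB. In the tenth with the highest GC content (63.9%) it was -0.18 and -0.81 in the parental libraries and 1.35 and 0.67 with ERB. The log2 fold change with ERB and the GC content had a Spearman correlation of 0.70 across 17123 genes, which are not independent replicates. After the smooth trend with GC content and length was taken out of every library by offsets, it was 0.079. In SW620 with ERB against its parental cells it was -0.082.

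**Figure D1:**
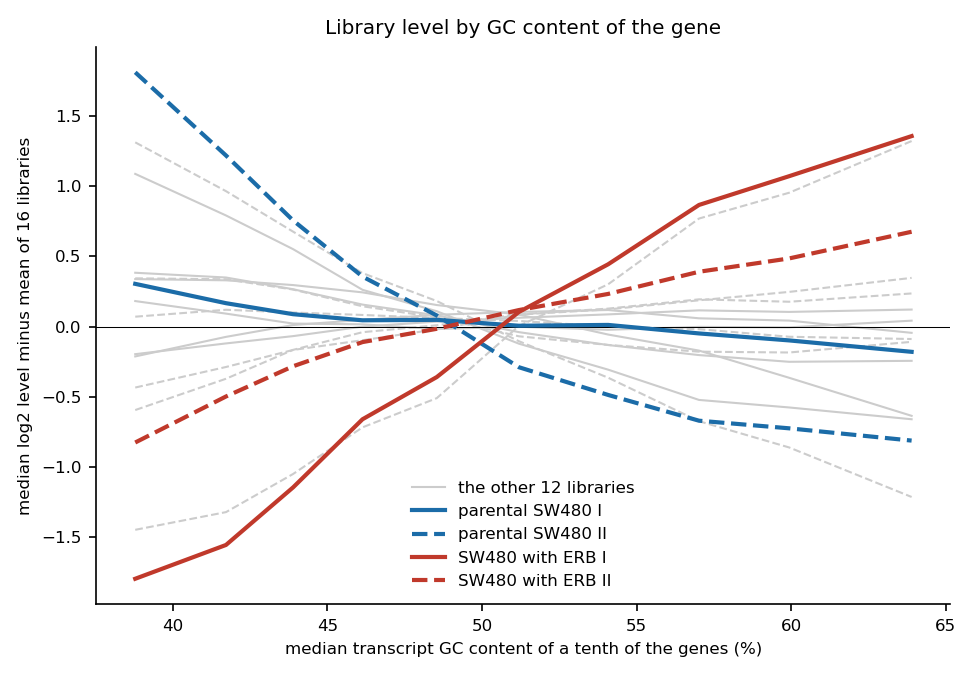
Median log2 level minus the mean of all 16 libraries (vertical axis) in 10 classes of genes ordered by transcript GC content (horizontal axis, %). Blue lines are parental SW480, red lines SW480 with ERB and grey lines the other 12 libraries; solid lines are libraries I and dashed lines libraries II. At the lowest GC content parental library II stands at 1.81 and ERB library I at -1.79.

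edgeR's quasi-likelihood test called 7756 of 17464 genes between SW480 with ERB and parental SW480 (44.4%) at a Benjamini-Hochberg adjusted p under 0.05. Of these, 3400 were higher with ERB (19.5%) and 4356 lower (24.9%). The median log2 fold change of all genes was -0.13 and became 0.06 with the GC and length offsets. With these offsets 3775 genes were called higher (21.6%) and 3254 lower (18.6%), and on the log2(FPKM + 1) scale 1703 and 3553. Of the calls without offsets, 2374 of the 3400 higher and 2366 of the 4356 lower ones were called in the same direction with them. The offsets turned the sign of 98 higher and 511 lower calls, and 65 of the lower calls became higher calls. Both ERB libraries lay above both parental libraries for 6156 genes (35.2%) and below them for 6817 (39%). The count rested on 2 libraries: 813 genes were called without ERB library I and 1390 without parental library II. In a fit of the 6 SW480 libraries alone edgeR called 0 genes, while 4822 had an unadjusted p under 0.05 and the smallest adjusted p was 0.0992. With the offsets the same 6 libraries gave 2068 calls.

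For this reason the results lead with genes that kept their call and direction in 10 fits, a choice made after seeing the data. These were the fit of 16 libraries, the 4 fits without 1 of the 4 libraries, and the same 5 with GC and length offsets. They held 645 genes (3.69%), 388 higher (2.22%) and 257 lower (1.47%). Their median GC content was 56.2% among the higher and 46.8% among the lower genes. Their median log2 fold change was 2.78 for the higher genes and -3.63 for the lower ones, and 2.15 and -2.83 with the offsets.

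**Figure D2:**
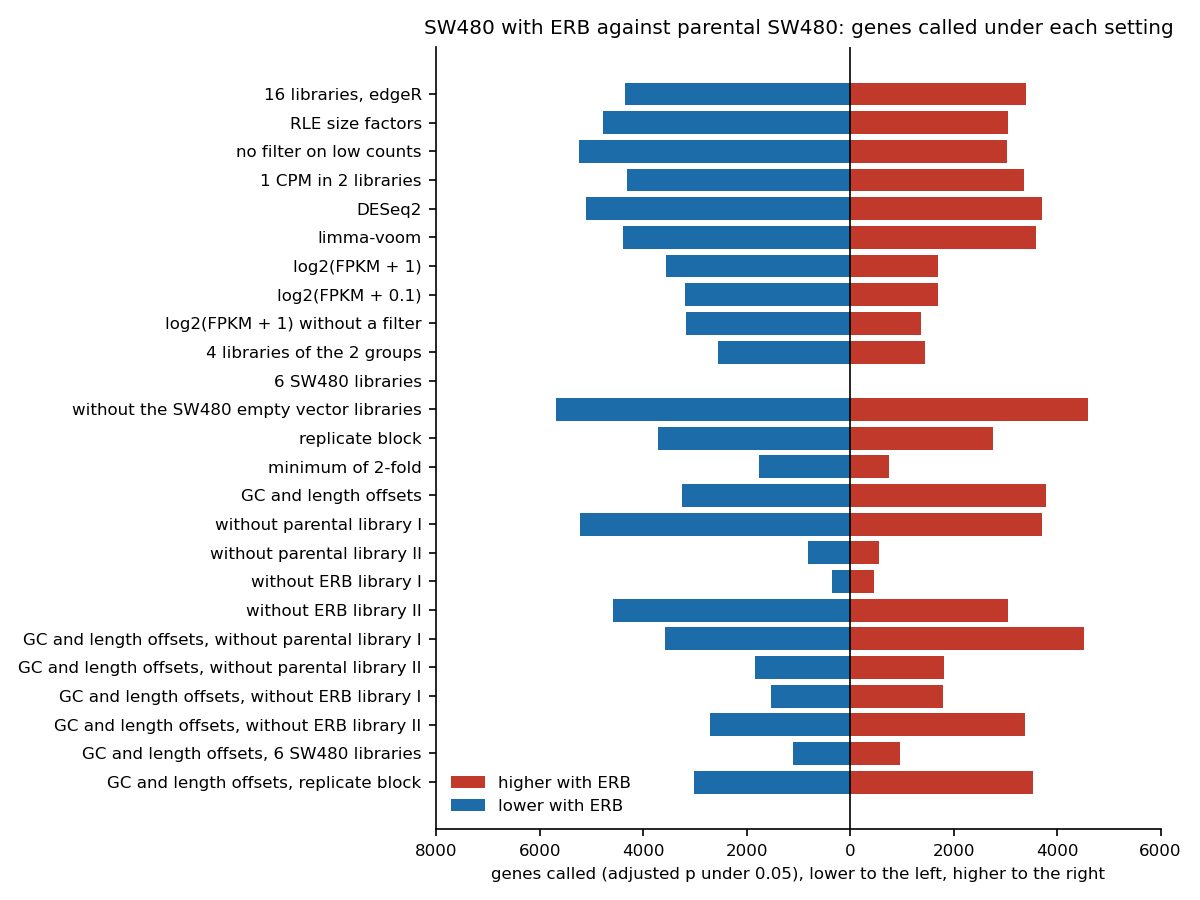
Number of genes called at an adjusted p under 0.05 between SW480 with ERB and parental SW480 (horizontal axis; lower to the left in blue, higher to the right in red) for each fit (vertical axis). The count falls from 7756 to 813 without ERB library I, to 1390 without parental library II and to 0 with the 6 SW480 libraries alone.

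Below, levels are CPM scaled with TMM factors and given for library I and then library II. Fold changes are log2 values from the fit of 16 libraries, SW480 with ERB minus parental, with SE and Benjamini-Hochberg adjusted p from edgeR. Levels of different genes are not comparable, since CPM are not scaled by length. List counts below stand beside the shares of all genes tested, 19.5% called higher and 24.9% lower. In all 10 fits these shares were 2.22% and 1.47%, and with the offsets 21.6% and 18.6%. A list count near these shares is no result about its members.

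Among the other steroid receptors, the membrane estrogen receptor gene GPER1 rose. It stood at 8.21 and 9.64 CPM in the parental libraries and at 101 and 74.2 CPM with ERB (log2 fold change 3.29 ± 0.42, adjusted p = 0.000928), and the call held in all 10 fits. Its levels were 65.3 and 88.7 CPM in parental SW620 and 35.8 and 73.9 CPM in SW480 with the empty vector. The glucocorticoid receptor gene NR3C1 fell from 3.33 and 12.1 to 0.342 and 0.764 CPM (-3.73 ± 0.83, adjusted p = 0.00777), in 7 of the 10 fits. Of 6 tested receptors, ESR2 included, 3 were called higher and 2 lower, and ESR2 and GPER1 were those called in all 10 fits.

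Coregulators, the proteins that receptors recruit to DNA, moved in both directions. In all 10 fits 0 of 14 kept a call, beside 3.69% of all genes. In the fit of 16 libraries 5 were called higher and 6 lower. CARM1, a histone arginine methyltransferase, stood at 89.9 and 54.4 CPM in parental cells and 298 and 220.3 CPM with ERB (1.84 ± 0.42, adjusted p = 0.00857; 0.79 with the offsets). NRIP1, a corepressor that is itself an estrogen target, went from 1.36 and 9.78 to 0 and 0.535 CPM. The NRIP1 counts were 246 reads in both parental libraries and 7 with ERB, a ratio of 29.8 with a counting interval of 14.2 to 74.9.

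The classical estrogen response genes, known mainly from breast cancer cells with estrogen receptor alpha, moved in both directions. Of 18 tested, 3 were called higher and 7 lower, beside 19.5% and 24.9% of all genes. With the offsets 4 and 10 were called, beside 21.6% and 18.6%, and the list's median changed sign between these fits, from 0.41 to -0.59. CCND1, which encodes cyclin D1 and is also a WNT target, fell from 933 and 1177 to 198 and 299 CPM (-2.08 ± 0.28, adjusted p = 0.00113). FOS, a subunit of AP-1, fell from 23.2 and 31.5 to 7.07 and 7.56 CPM (-1.9 ± 0.33, adjusted p = 0.00313). Both calls held in all 10 fits and no parental library overlapped an ERB library. In parental SW620, CCND1 stood at 182 and 144 CPM and FOS at 1.798 and 1.87 CPM. In SW480 with the empty vector, CCND1 stood at 125 and 104 CPM and FOS at 2.55 and 3.34 CPM, below the ERB libraries. STC2, the secreted glycoprotein stanniocalcin 2, stood at 298 and 254 CPM in parental cells and at 52 and 63.02 CPM with ERB, called in 9 of 10 fits. GREB1, CTSD and XBP1 were the 3 called higher.

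The consensus estrogen response element GGTCANNNTGACC, searched on both strands, was in 18 of 27305 promoters from RefSeq (GRCh38.p14; 250 bases before to 50 after a gene's start), or 0.066%. Among promoters of genes tested it was in 1 of 10895 (0.009%). It was in 0 of 2159 promoters of genes called higher and in 0 of 3243 of genes called lower. With an element this rare, these counts cannot show whether it goes with the changes.

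**Figure D3:**
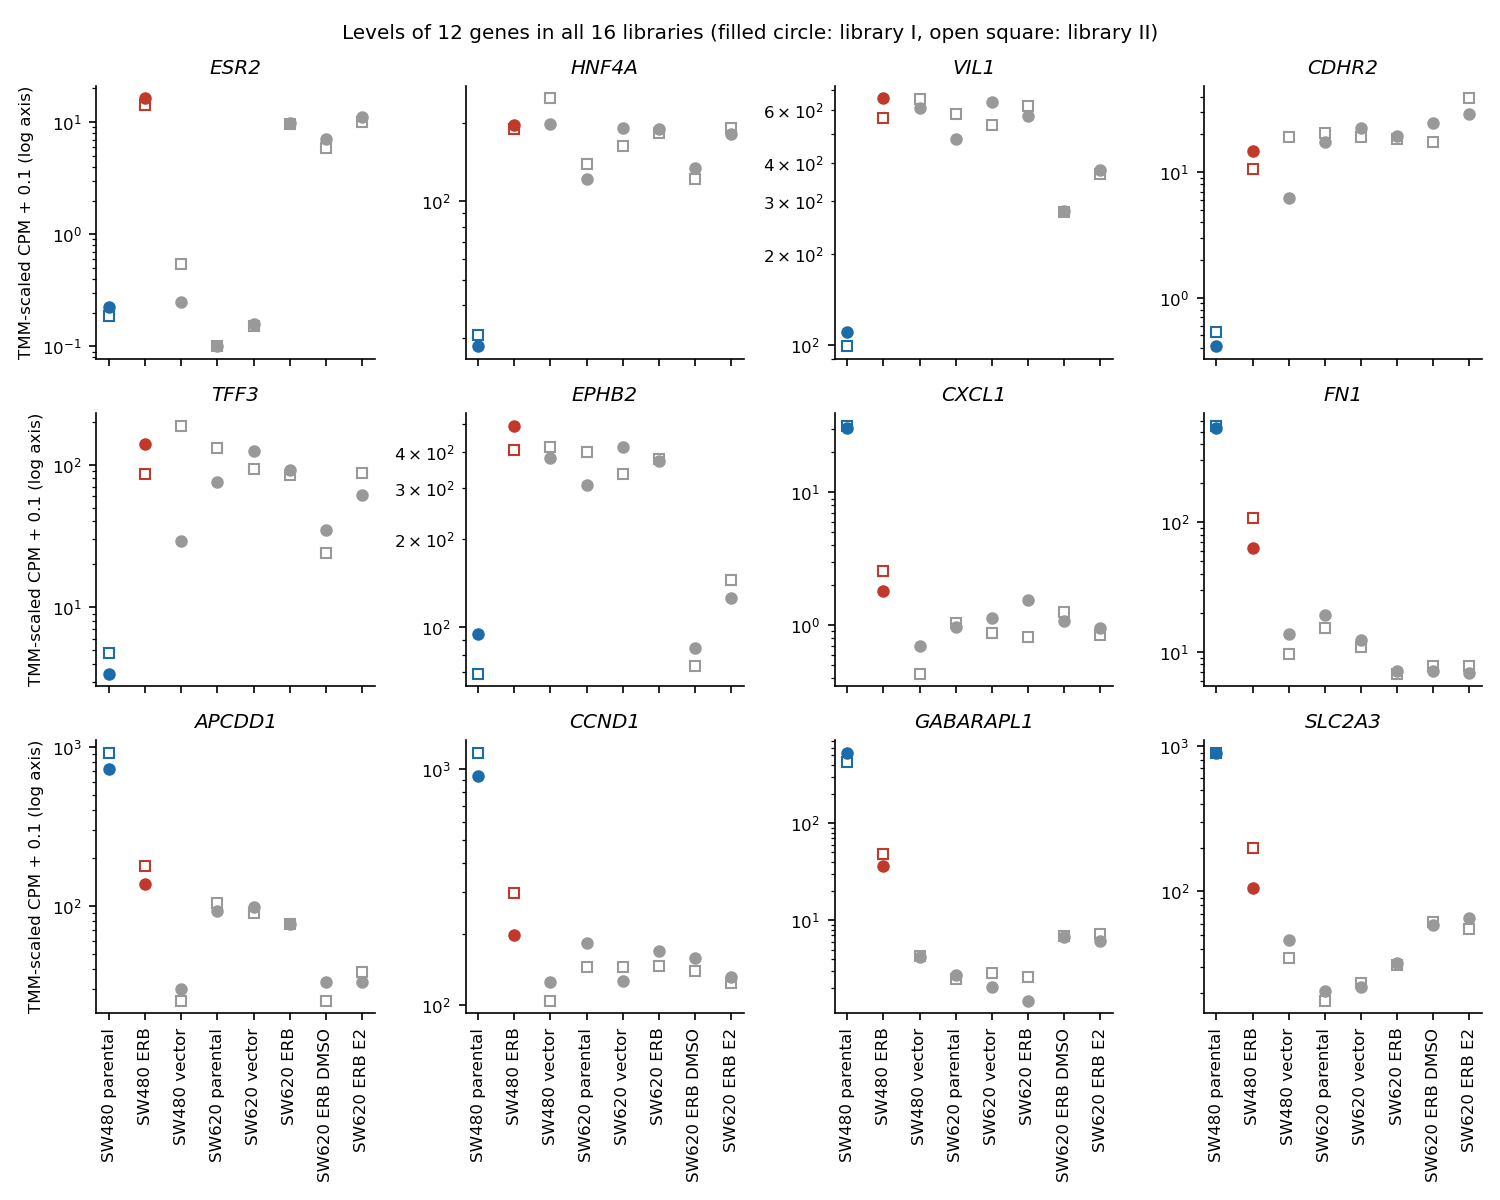
TMM-scaled CPM plus 0.1 (vertical axes, log scale) of 12 genes in all 16 libraries, by group (horizontal axis); filled circles are libraries I and open squares libraries II, blue is parental SW480 and red SW480 with ERB. The genes are ESR2 and others named for their change, so the separation of the ERB and parental SW480 libraries in all 12 is no result. Over all genes tested, both ERB libraries lay above both parental ones for 35.2% and below them for 39%. CXCL1 goes from 30.7 and 31.8 CPM in parental cells to 1.71 and 2.44 CPM with ERB.

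NF-kB is a transcription factor that turns on chemokine, cytokine and survival genes, and ERB is known to act on NF-kB targets. Its target genes were lower in SW480 with ERB. Of 23 tested, 20 were called lower and 0 higher, against 24.9% and 19.5% of all genes; 7 lower calls held in all 10 fits. The median log2 fold change was -2.24, and -2.84 with the offsets, which gave 21 lower calls.

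The chemokine genes CXCL1, CXCL3 and IL8 attract neutrophils. CXCL1 fell from 30.7 and 31.8 to 1.71 and 2.44 CPM (-3.89 ± 0.42, adjusted p = 0.000608), and its value with the offsets was -3.88. CXCL3 fell from 9.26 and 8.95 to 1.03 and 1.299 CPM (-2.95 ± 0.4, adjusted p = 0.00114). Counting could split reads between these 2 genes and CXCL2, which are close copies. IL8 fell from 19.6 and 43.03 to 0.684 and 0.993 CPM (-5.19 ± 0.75). For each chemokine both parental libraries lay above both ERB libraries.

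CSF2, the cytokine GM-CSF, fell from 22.1 and 18.9 to 0.57 and 0.764 CPM (-4.91 ± 0.61, adjusted p = 0.00092). BIRC3, an inhibitor of apoptosis, fell from 6.55 and 39.01 CPM to 0 and 0.153 CPM; the reads were 1000 in both parental libraries and 2 with ERB, a ratio of 424 with a counting interval of 117 to 3506. ICAM1, an adhesion molecule for leukocytes, fell from 255 and 227 to 53.4 and 48.4 CPM, and TNFAIP2, a tumour necrosis factor-induced gene, from 224 and 210.5 to 61.1 and 46.6 CPM. All 7 were called in all 10 fits. The parental libraries disagreed most on BIRC3, where library II stood above library I.

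These genes were also low in parental SW620 and in SW480 with the empty vector. In parental SW620, CXCL1 stood at 0.868 and 0.934 CPM, CSF2 at 0.062 and 0.0779 CPM and ICAM1 at 1.55 and 2.18 CPM. In SW480 with the empty vector CXCL1 stood at 0.601 and 0.334 CPM and ICAM1 at 6.23 and 14.2 CPM, below the ERB libraries. NFKB2, RELB and CSF1 were the 3 list members not called.

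The promoters of 4 of these genes are shown because the genes fell together and carry, or lack, a match to the NF-kB consensus. Each line gives the 250 bases before the gene's start from RefSeq (GRCh38.p14), 5′ to 3′ on the gene's strand, with the matches in capitals. They lie at chr4:73869143-73869392 (plus strand) for CXCL1, chr4:74038690-74038939 (minus) for CXCL3, chr11:102317234-102317483 (plus) for BIRC3 and chr5:132073539-132073788 (plus) for CSF2.
CXCL1: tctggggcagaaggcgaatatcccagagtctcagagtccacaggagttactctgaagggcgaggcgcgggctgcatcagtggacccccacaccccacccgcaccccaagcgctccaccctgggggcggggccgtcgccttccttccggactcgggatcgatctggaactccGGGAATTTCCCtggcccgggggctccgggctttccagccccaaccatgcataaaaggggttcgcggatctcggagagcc
CXCL3: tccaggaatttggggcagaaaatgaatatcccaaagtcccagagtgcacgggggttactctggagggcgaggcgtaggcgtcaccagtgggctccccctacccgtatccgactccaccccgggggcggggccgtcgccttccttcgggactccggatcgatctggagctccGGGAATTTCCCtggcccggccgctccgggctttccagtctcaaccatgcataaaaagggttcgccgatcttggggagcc
BIRC3: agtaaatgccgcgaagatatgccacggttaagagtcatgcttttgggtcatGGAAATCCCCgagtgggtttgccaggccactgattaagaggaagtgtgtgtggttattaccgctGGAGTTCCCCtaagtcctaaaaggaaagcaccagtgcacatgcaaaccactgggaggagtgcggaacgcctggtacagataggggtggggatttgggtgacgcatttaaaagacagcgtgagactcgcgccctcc
CSF2: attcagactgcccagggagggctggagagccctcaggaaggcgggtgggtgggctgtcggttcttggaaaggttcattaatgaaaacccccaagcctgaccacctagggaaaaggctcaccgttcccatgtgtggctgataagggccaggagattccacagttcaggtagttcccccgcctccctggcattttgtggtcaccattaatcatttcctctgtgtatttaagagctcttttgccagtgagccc

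CXCL1 and CXCL3 each hold 2 overlapping matches that begin 79 and 78 bases before the start. BIRC3 holds 2 separate matches, 199 and 135 bases before it, and CSF2 has 0 of these letters in this window. The motif was searched on both strands. It was in 10 of the 18 NF-kB list promoters found (55.6%), in 10.8% of all promoters and in 13.1% of those of genes tested. The list names known NF-kB targets, so its motif share is no test of these data. Of the 17 list promoters of genes called lower, 10 held it and 7 did not. Among all genes called lower it was in 12.5% of promoters and among all genes called higher in 13.3%. In the brush border list 5 of 10 promoters held it, 3 of them among the 8 of genes called higher. A match is a description of the letters and not a bound site.

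The intestinal lineage factors HNF4A, FOXA2, FOXA3, ELF3 and ISX, which switch on genes of the gut epithelium, rose in SW480 with ERB. Of 25 listed lineage factors 16 passed the filter on low counts and were tested. Of the tested ones 8 were called higher and 2 lower. In all 10 fits 6 higher calls held, those of the genes above among them. HNF4A, a nuclear receptor that drives enterocyte genes, rose from 27.7 and 30.6 to 197 and 189.6 CPM (2.73 ± 0.24, adjusted p = 0.000309; 1.71 with the offsets). FOXA2 rose from 15.4 and 12.2 to 108 and 93.8 CPM and FOXA3 from 9.14 and 5.63 to 114 and 59.4 CPM; both are pioneer factors of endoderm. ISX, an intestine-specific homeobox factor, rose from 0.556 and 1.61 to 10.8 and 10.6 CPM. KLF4, a factor of differentiated epithelium, was called lower. HNF4A stood at 122 and 139 CPM in parental SW620 and at 198 and 248 CPM in SW480 with the empty vector.

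Brush border genes, which build the absorptive surface of enterocytes, rose with them. Of 30 listed, 12 passed the filter on low counts and were tested. Of these, 9 were called higher and 0 lower, beside 19.5% and 24.9% of all genes. In all 10 fits 3 were called higher, beside 2.22% of all genes. The median of 2.06 was 2.05 with the offsets. VIL1 encodes villin, which bundles actin in microvilli. It rose from 109.98 and 98.8 to 655 and 565 CPM (2.55 ± 0.24, adjusted p = 0.000366). CDHR2 and USH1C encode parts of the complex that links microvillus tips. CDHR2 rose from 0.309 and 0.436 to 14.6 and 10.5 CPM (5.02 ± 0.57, adjusted p = 0.000633) and USH1C from 32.1 and 27.7 to 325 and 211 CPM (3.16 ± 0.37, adjusted p = 0.000747). EZR, ANPEP and CA2 were not called. In parental SW620, VIL1 stood at 481 and 583 CPM and CDHR2 at 17.2 and 20.5 CPM, and with the empty vector in SW480 VIL1 stood at 610.01 and 652 CPM.

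Secretory genes were mixed, and 14 of 24 listed passed the filter and were tested. Of these, 5 were called higher and 1 lower, 4 of the higher ones in all 10 fits. TFF3, the trefoil peptide of goblet cells, rose from 3.33 and 4.67 to 139 and 85.5 CPM (4.8 ± 0.74, adjusted p = 0.00185; 3.22 with the offsets). TFF2, the trefoil peptide of gastric mucous cells, rose from 0.494 and 0.916 to 12.1 and 6.42 CPM. MUC1, a membrane mucin, rose from 4.69 and 6.07 to 47.3 and 30.7 CPM. DLL4, a Notch ligand, rose from 6.61 and 6.37 to 54.7 and 39.6 CPM (2.86 ± 0.31, adjusted p = 0.000608). In the SW480 empty vector libraries TFF3 stood at 28.9 and 188 CPM, so these 2 libraries spanned the ERB range. The enteroendocrine granule genes CHGA and CHGB were not called.

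Junction and polarity genes rose in part, with 11 of 29 called higher and 4 lower, and 4 higher calls in all 10 fits. CDH1, which encodes E-cadherin, the adhesion molecule of epithelia, rose from 8.27 and 14.4 to 26.1 and 59.4 CPM (1.92 ± 0.4, adjusted p = 0.00619). CRB3, an apical polarity protein, rose from 4.75 and 2.79 to 42.9 and 24.1 CPM (3.15 ± 0.56), and F11R, the junctional adhesion molecule JAM-A, from 35.6 and 30.6 to 94.9 and 82.8 CPM. ESRP2, an epithelial splicing regulator, rose from 46.01 and 34.7 to 142 and 117 CPM. CDH1 also stood higher with ERB in SW620, at 65.7 and 73.3 CPM against 18.7 and 14.6 CPM in parental cells. This log2 fold change of 2.06 was not called, and the difference between the lines had an adjusted p of 0.863 in edgeR's test. With the empty vector CDH1 also stood above the parental level, at a mean of 92.1 CPM in SW480 and 50.1 CPM in SW620. TJP1, OCLN, CLDN1 and CLDN12 were the 4 called lower.

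Of the keratins, the filament proteins of epithelia, 6 of 13 were called higher and 1 lower. Of the higher calls 0 held in all 10 fits, and without ERB library I or without parental library II 0 were called higher and 1 lower. KRT19 stood at 623 and 273 CPM in parental cells and 4671 and 2405 CPM with ERB, called in 8 of 10 fits. KRT23 was the gene called lower, from 146 and 107 to 21.9 and 35.98 CPM (-2.13 ± 0.32, adjusted p = 0.00168), in all 10 fits. In SW620 it stood at 13.9 and 16.4 CPM in parental cells and 57.9 and 63.3 CPM with ERB. Of the annexins and S100 proteins, calcium-binding proteins of the membrane and cytoplasm, 9 of 20 were called higher and 3 lower, 2 and 1 of them in all 10 fits. Without parental library II 2 were called higher and 4 lower, and without ERB library I 2 and 1. S100A14 rose from 1.98 and 1.75 to 15.4 and 12.5 CPM and ANXA9 from 1.24 and 1.396 to 15.6 and 10.01 CPM. ANXA1, a mediator of the glucocorticoid response, fell from 45.8 and 191 to 0.57 and 2.98 CPM, with library II above library I in both groups.

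**Figure D4:**
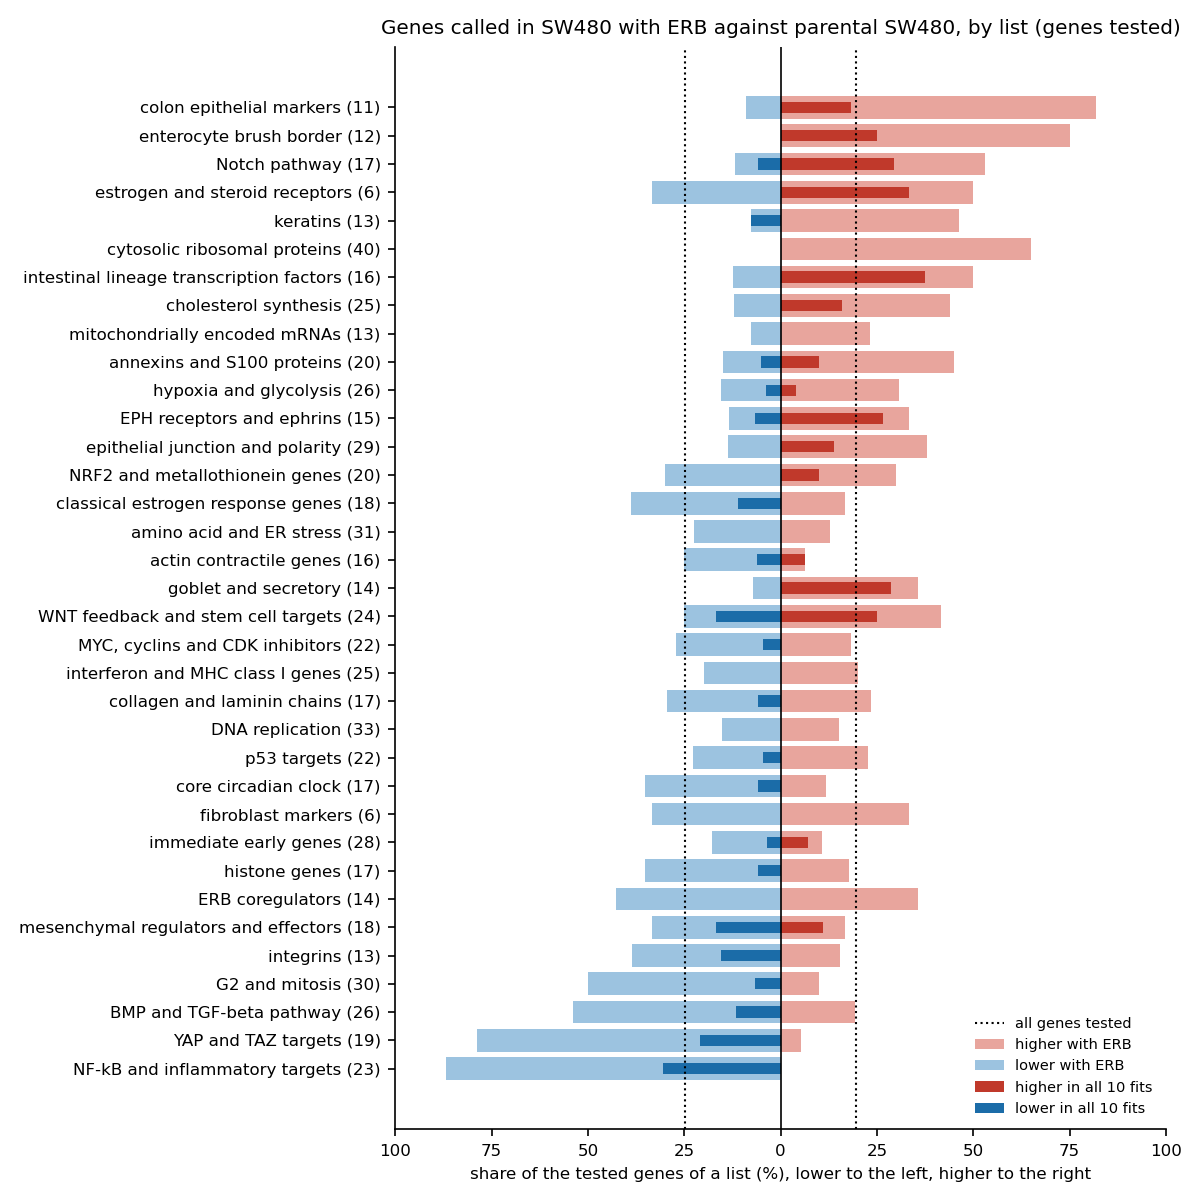
Share of the tested genes of each list (horizontal axis, %) called higher with ERB (right, red) or lower (left, blue) in SW480; the number tested stands in brackets, dark bars are genes called in all 10 fits and dotted lines the shares of all genes tested. Lists are ordered by their median log2 fold change. NF-kB targets, with 20 of 23 called lower, stand at the bottom, and brush border genes, with 9 of 12 called higher, near the top.

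SW480 and SW620 carry an APC mutation, and WNT signalling through beta-catenin is constantly active in them. WNT targets and feedback genes moved in both directions. Of 24 tested, 10 were called higher and 6 lower (7 and 7 with the offsets), and 6 higher and 4 lower calls held in all 10 fits. SMOC2, a marker of intestinal stem cells, rose from 8.09 and 13.5 to 62.3 and 68.97 CPM (2.6 ± 0.29, adjusted p = 0.000608). ASCL2, the stem cell transcription factor, rose from 26.7 and 13.5 to 208 and 120.4 CPM and NOTUM, an enzyme that inactivates WNT ligands, from 116 and 75.5 to 1195 and 912 CPM. NKD2, an inhibitor of the pathway, rose from 16.9 and 16.1 to 234 and 149 CPM. LGR5, RNF43 and ZNRF3, other stem cell and feedback genes, were not called.

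Those that fell included 2 secreted or membrane-bound WNT inhibitors. APCDD1 fell from 726 and 918 to 137 and 177 CPM (-2.39 ± 0.26, adjusted p = 0.000608; -3.28 with the offsets) and DKK1 from 33.96 and 30.4 to 1.25 and 1.53 CPM (-4.52 ± 0.67). LEF1, a partner of beta-catenin on DNA, fell from 31.7 and 47.9 to 4.33 and 7.03 CPM. CD44, an adhesion receptor for hyaluronan, fell from 105 and 67.7 to 16.3 and 19.2 CPM (-2.28 ± 0.33, adjusted p = 0.0015). APCDD1 stood at 92.9 and 104 CPM in parental SW620 and lower still, at 29.7 and 25.2 CPM, in SW480 with the empty vector.

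EPH receptors, which set the position of cells along the crypt, split by member. EPHB2 rose from 93.99 and 68.95 to 492 and 407 CPM (2.46 ± 0.27, adjusted p = 0.000608), EPHB3 from 9.695 and 10.1 to 112 and 73.6 CPM (3.22 ± 0.4) and EPHB6 from 48.4 and 38.4 to 407 and 246 CPM. EPHA4 fell from 23.3 and 52.2 to 2.17 and 3.67 CPM (-3.68 ± 0.46, adjusted p = 0.000928). All 4 were called in all 10 fits. Over the list, 5 of 15 were called higher and 2 lower, but 5 and 6 with the offsets, and 4 and 1 in all 10 fits.

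Notch signals between neighbouring cells and steers intestinal cells towards the absorptive fate. Of 17 Notch genes 9 were called higher and 2 lower (8 and 4 with the offsets, 5 and 1 in all 10 fits). Besides DLL4, the ligand gene JAG2 rose from 19.1 and 16.3 to 86.7 and 74.4 CPM. LFNG and MFNG encode fringe enzymes that modify the receptors; LFNG rose from 25.2 and 16.8 to 168 and 129.6 CPM (2.82 ± 0.42, adjusted p = 0.00164) and MFNG from 68.9 and 37.01 to 745 and 376 CPM. HES6, an antagonist of HES1, rose from 72.5 and 41.9 to 745 and 416 CPM. The receptor gene NOTCH2 fell from 123 and 154 to 16.8 and 26.1 CPM (-2.69 ± 0.38, adjusted p = 0.00147).

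Genes of the BMP and TGF-beta pathway, which restrains growth of colon epithelium, fell more often than they rose. Of 26 tested, 5 were called higher and 14 lower, 3 lower in all 10 fits, and the median was -1.61 (-0.77 with the offsets). BMP4 fell from 693 and 615 to 269 and 299 CPM (-1.2 ± 0.23, adjusted p = 0.00413). BMP2 had 58 and 75 reads in the parental libraries and 0 in both ERB libraries, where 3 reads would be 0.213 and 0.195 CPM. LTBP2, which binds matrix fibrils, fell from 66.8 and 50.01 to 8.21 and 6.26 CPM (-3.01 ± 0.52). BMP2 also had 0 reads in both parental SW620 libraries.

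YAP and TAZ are coactivators that respond to cell shape and density and act through TEAD factors. Of 19 targets and pathway genes 15 were called lower and 1 higher, beside 24.9% and 19.5% of all genes. In all 10 fits 4 were called lower, beside 1.47% of all genes. The median was -1.71 (-1.87 with the offsets). CYR61, a matrix-associated signalling protein, fell from 241 and 170.02 to 49.8 and 52.7 CPM (-2 ± 0.31, adjusted p = 0.00184). CRIM1, a membrane protein that binds BMPs, fell from 123 and 193 to 3.88 and 11.7 CPM (-4.33 ± 0.7) and ANKRD1, a nuclear ankyrin-repeat protein, from 104 and 158 to 3.54 and 9.62 CPM (-4.3 ± 0.71). LATS2, the kinase that inactivates YAP and is also its target, fell from 31.1 and 50.1 to 6.04 and 10.6 CPM. In parental SW620 CYR61 stood at 2.85 and 4.13 CPM and ANKRD1 at 0.186 and 0 CPM. In SW480 with the empty vector, mean levels were 5.02 CPM for CYR61, 1.37 CPM for CRIM1 and 0.673 CPM for ANKRD1, below the ERB libraries. AJUBA was the 1 gene called higher.

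The ANKRD1 promoter is shown because it held 2 copies of the TEAD motif GGAATG, in capitals, at 220 and 128 bases before the start. It lies at chr10:90921088-90921337 on the minus strand (RefSeq, GRCh38.p14).
ANKRD1: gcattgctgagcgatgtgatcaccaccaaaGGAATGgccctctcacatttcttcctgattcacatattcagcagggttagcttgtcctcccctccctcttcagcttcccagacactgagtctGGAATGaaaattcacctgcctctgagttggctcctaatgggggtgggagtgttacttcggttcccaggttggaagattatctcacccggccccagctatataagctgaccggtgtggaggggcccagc

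GGAATG, searched on both strands, was in 6 of 14 YAP and TAZ list promoters found (42.9%) and in 14.05% of all promoters. The list names targets and pathway genes of these factors, so its motif share is no test of these data. Among promoters of genes tested the motif was in 10.9%. It was in 11.1% of promoters of genes called lower and 10.8% of those called higher.

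Mesenchymal regulators and effectors were split, with 6 of 18 called lower and 3 higher, 3 and 2 of them in all 10 fits. FN1, which encodes the matrix protein fibronectin, fell from 529.7 and 557 to 63.7 and 109 CPM (-2.66 ± 0.31, adjusted p = 0.00075). ZEB1, a repressor of CDH1, fell from 3.396 and 15.8 to 0.114 and 0.0764 CPM; its 418 parental reads against 2 with ERB gave a ratio of 177 with a counting interval of 48.8 to 1468. SNAI1, another repressor of CDH1, rose from 6.73 and 3.97 to 37.1 and 26.8 CPM (2.58 ± 0.46, adjusted p = 0.00351), and TGFBI, a matrix protein, from 88.1 and 73.8 to 326 and 279.9 CPM. VIM, which encodes vimentin, was not called. FN1 stood at 19.1 and 15.2 CPM in parental SW620 and at 6.99 and 6.71 CPM in SW620 with ERB. In SW480 with the empty vector, mean levels were 11.5 CPM for FN1 and 0.842 CPM for ZEB1.

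Integrins, the receptors for the matrix, were called lower for 5 of 13 and higher for 2, with 2 lower and 0 higher in all 10 fits. ITGA1, a collagen receptor subunit, fell from 72.1 and 391 to 1.597 and 5.42 CPM (-6.01 ± 0.97; -3.6 with the offsets), and ITGAV, a subunit of fibronectin and vitronectin receptors, from 27.8 and 115 to 1.25 and 2.14 CPM (-5.37 ± 0.79; -2.93 with the offsets). Both parental libraries lay above both ERB libraries, with parental library II the highest. In the list of matrix chains, 4 of 17 were called higher and 5 lower, with 0 and 1 in all 10 fits. Among actin genes, 1 of 16 was called higher and 4 lower, with 1 and 1 in all 10 fits. MYLK, the kinase that activates myosin, fell from 22.05 and 35.7 to 1.597 and 3.28 CPM (-3.54 ± 0.45) and TPM2, a tropomyosin, rose from 52.98 and 42.5 to 454 and 313 CPM (3.01 ± 0.46).

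Cell cycle genes were called in both directions. Of 30 G2 and mitosis genes 15 were called lower and 3 higher, beside 24.9% and 19.5% of all genes. In all 10 fits 2 were called lower, beside 1.47% of all genes. The median of -1.44 was -0.54 with the offsets. TTK, a spindle checkpoint kinase, fell from 8.89 and 64.6 to 0.456 and 0.458 CPM and HMMR, a spindle protein, from 12.4 and 77.2 to 0.57 and 0.993 CPM, while CCNB1 and CCNB2 were not called. Parental library II held most of these reads. Of 33 replication genes 5 were called higher and 5 lower, with 0 in all 10 fits beside 3.69% of all genes. Of 22 MYC, cyclin and inhibitor genes 4 were called higher and 6 lower, and CCND1 was the one called in all 10 fits.

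Of 22 p53 targets 5 were called higher and 5 lower, near the 19.5% and 24.9% of all genes. Both lines carry mutant p53. FAS, the death receptor, fell from 5.19 and 23.1 to 0.114 and 0.0764 CPM and was the 1 list member called in all 10 fits. Of 28 immediate early genes 3 were called higher and 5 lower, 2 and 1 in all 10 fits; without ERB library I the counts were 2 and 1, and without parental library II 2 and 2. JUN, the partner of FOS in AP-1, rose from 37.6 and 29.4 to 90.9 and 95.5 CPM (1.48 ± 0.27, adjusted p = 0.00381), so the genes of these AP-1 subunits moved in opposite directions. DUSP4, a MAP kinase phosphatase, rose from 20.3 and 25.1 to 59.2 and 68.97 CPM (1.5 ± 0.25).

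In metabolism, 11 of 25 cholesterol synthesis genes were called higher and 3 lower, 4 higher in all 10 fits, with a median of 1.09 (0.65 with the offsets). FDFT1, squalene synthase, rose from 177 and 114 to 567 and 436 CPM, DHCR7, an enzyme of a late step, from 163 and 93.2 to 733 and 436 CPM, and SREBF1, a lipid synthesis regulator, from 47.9 and 29.02 to 429.6 and 305 CPM (3.26 ± 0.55, adjusted p = 0.0029). SQLE, squalene epoxidase, was not called.

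Of 26 hypoxia and glycolysis genes 8 were called higher and 4 lower (3 and 4 on the log2 FPKM scale), and 1 and 1 in all 10 fits. SLC2A3, a glucose transporter, fell from 898 and 894 to 105 and 199.7 CPM (-2.55 ± 0.31, adjusted p = 0.000894), and CA9, a hypoxia-induced carbonic anhydrase, rose from 4.08 and 3.49 to 53.7 and 31.01 CPM (3.48 ± 0.66). NRF2 and metallothionein genes were called higher for 6 of 20 and lower for 6, with 2 and 0 in all 10 fits. AKR1C3, a steroid-reducing enzyme, rose from 7.53 and 14.1 to 37.1 and 50.4 CPM and its close copy AKR1C1 from 1.98 and 2.09 to 6.39 and 7.41 CPM; reads could be split between the AKR1C genes. Amino acid and ER stress genes were called higher for 4 of 31 and lower for 7, with 0 in all 10 fits.

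Of 17 clock genes 2 were called higher and 6 lower, and RORA, a nuclear receptor of the clock, fell in all 10 fits from 5.87 and 28.7 to 0.342 and 0.535 CPM. Interferon and MHC class I genes gave 5 calls higher and 5 lower of 25, with 0 in all 10 fits. Histone genes gave 3 calls higher and 6 lower of 17, with 0 and 1 in all 10 fits. H2AFZ, a histone variant, fell from 863 and 538 to 184 and 265 CPM (-1.64 ± 0.3).

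Further lists hold cytosolic ribosomal protein genes and mitochondrially encoded mRNAs. Of 40 cytosolic ribosomal protein genes 26 were called higher and 0 lower, beside 19.5% and 24.9% of all genes. In all 10 fits 0 were called, and many of these genes have pseudogenes that could share reads. Of 13 mitochondrially encoded mRNAs 3 were called higher and 1 lower, beside the same shares. With the offsets 11 and 0 were called, beside 21.6% and 18.6% of all genes. MT-ND6, the one called lower, went from 204 and 200.4 to 110.3 and 71.9 CPM and changed direction with the offsets (0.24). It lies on the strand opposite to the other 12, and the sources used here do not give whether counting used the strand.

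The cells were checked against epithelial markers and markers of other cell types. Colon epithelial markers summed to 5619 and 2913 CPM in parental SW480 and 29798 and 16141 CPM with ERB. KRT8 alone gave 15038 and 8128 CPM of the sums with ERB, and its call held in 8 of 10 fits. Of 11 tested markers 9 were called higher and 1 lower, beside 19.5% and 24.9% of all genes. In all 10 fits 2 were called higher and 0 lower, beside 2.22% and 1.47% of all genes. CDX1 had 0 reads in all 4 libraries. The 13 leukocyte markers summed to 1.79 and 2.14 CPM in parental cells and 4.22 and 2.22 CPM with ERB, with PTPRC, MS4A1 and TYROBP among those at 0 reads, and 0 of 2 tested were called. The 9 endothelial markers summed to 3.71 and 2.44 and 6.61 and 3.28 CPM, with PECAM1, KDR, TEK and CLDN5 at 0 reads and 0 of 2 called. The 12 fibroblast markers summed to 26.6 and 27.1 and 21.4 and 18.5 CPM, with COL3A1, DCN, FAP and POSTN at 0 reads; 2 of 6 were called higher and 2 lower.

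The genes with the largest changes fell outside these pathways for the most part. IHH, Indian hedgehog, a ligand of differentiated colonocytes, rose from 0.0618 and 0.305 to 6.5 and 5.04 CPM (4.81 ± 0.64, adjusted p = 0.0011). VWA5B2 rose from 1.297 and 0.786 to 42.7 and 26.1 CPM, C6orf15 from 4.08 and 1.57 to 113 and 66.7 CPM and GAL3ST1, a sulfotransferase of glycolipids, from 0.432 and 0.349 to 14.03 and 9.24 CPM. The neighbouring membrane protein genes TMEM176A and TMEM176B rose together, with log2 fold changes of 4.56 and 4.68. All 6 were called in all 10 fits.

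Among the genes that fell most, IL6ST encodes gp130, the signalling receptor of the interleukin 6 family. It fell from 11.5 and 74.6 to 0 and 0.153 CPM, with 1897 parental reads against 2 (ratio 804, counting interval 222 to 6646). GULP1, an adaptor for engulfment, fell from 8.46 and 33.9 to 0.114 and 0 CPM, GOLGA4, a golgin, from 5.805 and 40.5 to 0.114 and 0.0764 CPM and TWF1, an actin-binding protein, from 7.78 and 46.1 to 0 and 0.306 CPM. LCA5 and LPPR4 had 287 and 251 parental reads and 0 with ERB, at least 81.1- and 70.9-fold lower if the ERB group is set to 3 reads in all; both were called in 8 of 10 fits. In these genes parental library II stood several times above library I, and their SEs were above 1.

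The genes with the smallest p had replicates close to each other. LIPC, hepatic lipase, rose from 0.865 and 1.18 to 14.3 and 12.8 CPM (3.7 ± 0.33), HGD, an enzyme of tyrosine breakdown, from 4.14 and 5.24 to 48.9 and 43.2 CPM (3.29 ± 0.3), and PAK1, a kinase of the cytoskeleton, from 17.9 and 20.8 to 125 and 121 CPM (2.67 ± 0.25). IL20RA, a cytokine receptor chain, rose from 7.23 and 9.21 to 59.99 and 64.9 CPM. GABARAPL1, an autophagy protein, fell from 534 and 429 to 36.2 and 48.7 CPM (-3.5 ± 0.33, adjusted p = 0.000366). SGPP2, a sphingosine phosphate phosphatase, fell from 24.2 and 31.1 to 0.798 and 1.299 CPM. GABARAPL1 stood at 2.604 and 2.41 CPM in parental SW620 and 4.06 and 4.23 CPM in SW480 with the empty vector. In SW480 with the empty vector LIPC stood at 17.0 and 16.5 CPM and HGD at 55.0 and 75.4 CPM. PAK1 stood there at 136 and 165 CPM, IL20RA at 75.5 and 82.7 CPM and SGPP2 at 0 and 0.111 CPM.

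**Figure D5:**
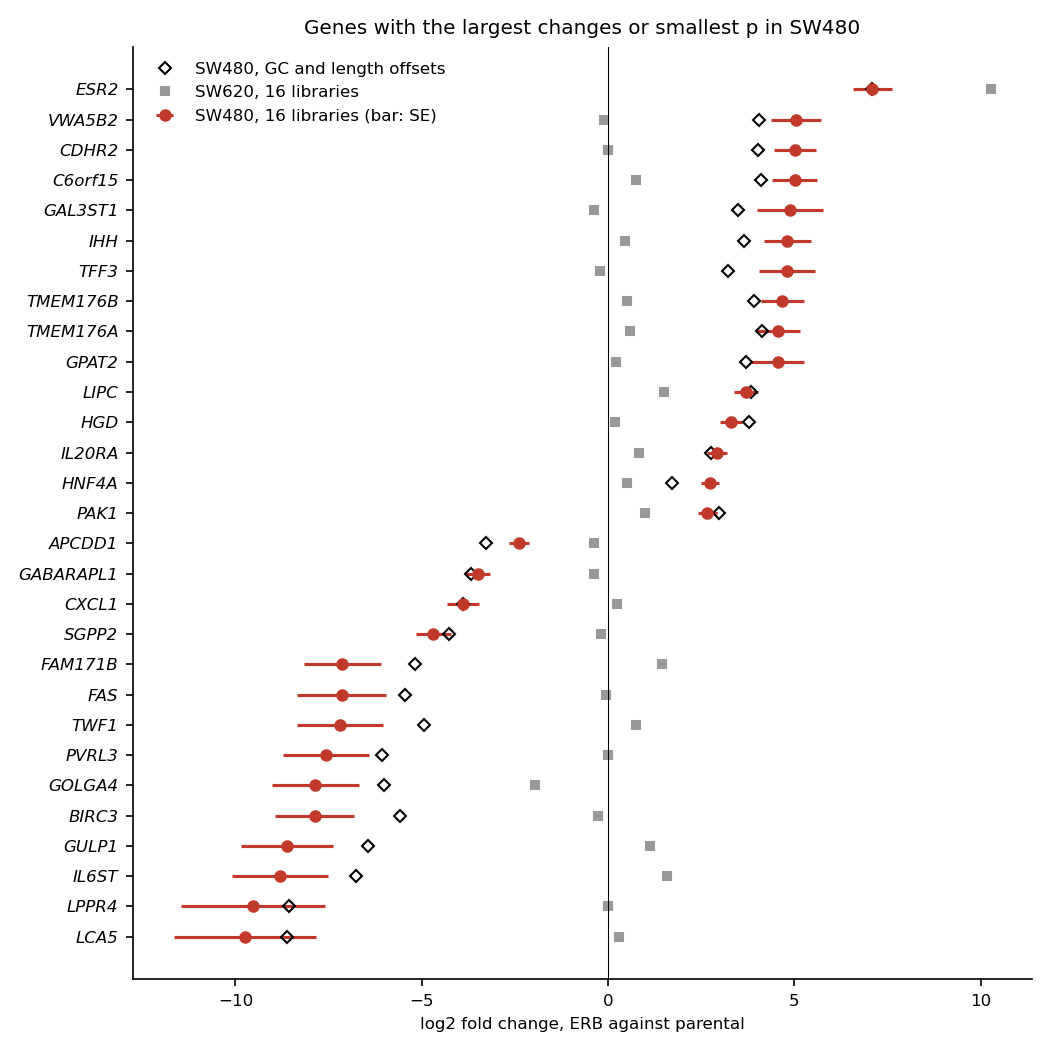
Log2 fold change with ERB against parental cells (horizontal axis) of genes among those with the largest changes or the smallest p in SW480, and ESR2 (vertical axis). Red points with SE bars are SW480 in the fit of 16 libraries, open diamonds SW480 with GC and length offsets and grey squares SW620. ESR2 is high in both lines, while CXCL1 stands at -3.89 in SW480 and 0.25 in SW620.

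The same contrast in SW620, with its own parental libraries, called 1 of 17464 genes (0.00573%), which was ESR2. Before adjustment, 471 genes had a p under 0.05, and DESeq2 called 39. The smallest adjusted p of any other gene was 0.114. Of the SW480 calls held in all 10 fits, the higher genes had a median log2 fold change of 0.11 in SW620 and the lower ones of 0.00. Some of the lower genes had few or no reads in SW620, where a fall could not be read. GULP1, for example, stood at a mean of 0.031 CPM in parental SW620. The test of the difference between the lines called 1476 genes (8.45%), of which 559 had the larger value in SW480 (3.2%) and 917 the smaller (5.25%). It called 8 of 23 NF-kB targets and 5 of 19 YAP and TAZ genes, all with the smaller value in SW480. It also called 3 of 12 brush border genes and 5 of 17 Notch genes, all with the larger value in SW480. For VIL1 the adjusted p of the difference was 0.0094, for HNF4A 0.0105, for CXCL1 0.00967 and for ESR2 0.175. The count fell to 2 or fewer without parental SW620 library II, without either SW620 library with ERB or without SW480 ERB library I, and to 111 without parental SW480 library II, so it rests on single libraries.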

How the data were processed

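The authors deposited raw read counts per gene and FPKM values (reads per length and library size) per gene for 16 stranded mRNA libraries. The tools were Cufflinks 2.1.1, HTSeq 0.6.1, Picard 1.29, SAMtools and TopHat2 2.0.4 with build GRCh37, per the submitters' processing notes; which tool made which table, and whether counting used the strand, are not given in the sources used here. The counts covered 63677 gene identifiers with 0 lines that name no gene; 22 had no FPKM, and 31 symbols turned into dates were restored from the annotation.

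Counts were filtered with edgeR's filterByExpr (17464 genes left), scaled with TMM factors (0.585 to 1.36; 0.622 and 0.850 in the ERB libraries and 1.02 and 1.21 in the parental ones) and fitted with edgeR 4.0.16 (R 4.3.3) in 1 quasi-likelihood model of 8 groups of 2. Tests are two-sided, p-values are adjusted over all genes tested (Benjamini-Hochberg) and a gene is called under 0.05. SEs come from the F statistic. Transcript GC content and length (GENCODE 29) were known for 98.0% of tested genes.

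Genes were named by a rule: ESR2; then called genes at 5 CPM or more in the higher group with separated libraries, the 10 per direction with the largest change and the 5 with the smallest p; then up to 3 called members of each of 37 lists with the smallest p. This gave 122 genes. Other list members were named after their values were seen. The comparison and the lists were chosen with earlier results of these data known.

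Alternatives were RLE size factors, 2 other filters on low counts, DESeq2 1.42.0, limma 3.58.1 (voom, and log2 FPKM with pseudocounts of 1 and 0.1), fits of 4 or 6 libraries or without the SW480 empty vector libraries, a replicate block, a minimum of 2-fold, GC and length offsets (natural splines, 5 degrees of freedom) and leaving out each library, when the lone library is assumed to vary like the other groups. The offsets together with another choice, and the calls in 10 fits, were added after seeing the data. Promoter windows came from RefSeq (GRCh38.p14); 10922 tested genes had one. That build differs from the files' build, so other coordinates are not given. Some of the named genes are not reported here.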

Additional observations from a re-analysis of the deposited data

Results flagged for a closer look

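For 75 of the 122 named genes the change with ERB differed between the lines by edgeR's test of the difference itself, with adjusted p-values from 0.00672 to 0.0494. The values below, given for all but 2 of them, are log2 fold changes in SW480 minus those in SW620, each with ERB against its own parental cells, so a positive value is a larger value in SW480. The named genes were chosen by their change in SW480, which is part of this difference. A share above the 8.45% of all genes was therefore built in and is no result. In SW620 ESR2 alone was called, so none of the 75 was called there. Levels in parental SW620 or in the SW480 empty vector libraries are given above for some of them. Over all genes, this test called 1476, and that count fell to 2 or fewer without parental SW620 library II, without either SW620 library with ERB or without SW480 ERB library I.

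Among epithelial genes the difference was 2.21 for HNF4A, 2.86 for FOXA2, 3.46 for FOXA3, 2.38 for VIL1, 5.02 for CDHR2, 2.94 for USH1C, 3.69 for TFF2 and 5.03 for TFF3. It was 1.70 for ESRP2, 3.16 for CRB3, 1.26 for F11R, 2.97 for KRT19, -4.13 for KRT23, 3.09 for ANXA9 and -5.64 for ANXA1. In the WNT, EPH and Notch genes it was 1.86 for SMOC2, -2.02 for APCDD1, -1.85 for CD44, 2.38 for EPHB2, 3.13 for EPHB3, -3.95 for EPHA4, 3.06 for DLL4 and 3.27 for LFNG. KRT23 had its value of -4.13 from a fall in SW480 (-2.13) and a higher value in SW620 with ERB (2.0), which was not called there.

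Among receptor and estrogen genes it was 4.11 for GPER1, -2.04 for CCND1, -2.53 for FOS and -2.30 for STC2. NF-kB targets gave -4.14 for CXCL1, -3.49 for CXCL3, -6.10 for CSF2 and -7.59 for BIRC3. Matrix, adhesion, YAP and TGF-beta genes gave -5.76 for ZEB1, -3.78 for MYLK, 3.13 for TPM2, -5.03 for CRIM1, -5.86 for ITGAV, -6.27 for ITGA1 and -3.33 for LTBP2.

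In cell cycle and stress genes the difference was -2.34 for CDKN1B, -5.70 for CCNE2, -3.46 for RFC3, -6.74 for TTK, -6.18 for HMMR, -4.48 for CENPF, -7.08 for FAS, -6.24 for RRM2B, 1.59 for DUSP4 and -1.97 for HIST1H2AC. Metabolic and clock genes gave -3.28 for SLC2A3, 3.98 for CA9, 1.78 for AKR1C3, -2.41 for GCLM, -4.36 for RORA, -4.99 for NR1D2 and -4.97 for CLOCK.

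The genes named for the size or the p of their change gave 5.16 for VWA5B2, 4.26 for C6orf15, 5.26 for GAL3ST1, 4.36 for IHH, 4.18 for TMEM176B, 3.98 for TMEM176A, 4.34 for GPAT2, 2.21 for LIPC, 2.11 for IL20RA, 3.11 for HGD and 1.67 for PAK1 on the positive side. On the negative side they gave -10.03 for LCA5, -10.37 for IL6ST, -5.90 for GOLGA4, -7.96 for TWF1, -8.59 for FAM171B, -3.14 for GABARAPL1 and -4.49 for SGPP2. LCA5 had 0 reads in both SW480 libraries with ERB, so its fitted value depends on the prior count. Several genes that fell in SW480 had few reads in SW620, where a fall could hardly be read and the SW620 value is uncertain. From parental SW620 to SW620 with ERB, mean levels were 0.0389 and 0.106 CPM for FAM171B and 0.0699 and 0.176 CPM for CSF2. For IL6ST they were 0.559 and 1.72 CPM.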

How the results depend on the processing

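Without 1 of the 4 libraries, the count of genes called between SW480 with ERB and parental SW480 ran from 813 to 8931 (7756 with all), and with GC and length offsets added from 3315 to 8099 (3635 without parental library II). The low ends are without ERB library I, where 42 of the 122 named genes lost their call; without parental library II 28 lost it. The count was 4888 with log2(FPKM + 0.1), 4547 with log2(FPKM + 1) and no filter, 4014 with the 4 libraries alone, 2517 with a minimum of 2-fold, 0 with the 6 SW480 libraries (4822 at an unadjusted p under 0.05) and 2068 with these and the offsets. With log2(FPKM + 1) the split was 1703 higher and 3553 lower, and the median of all genes was -0.36. Without the SW480 empty vector libraries, which entered only the estimate of the spread, 10269 genes were called in SW480. The offsets gave 7029 calls, ended 6 named calls and reversed 1. In SW620 the count was 28 without the filter, 39 with DESeq2, 8 without the SW480 empty vector libraries and 50 with the offsets. For the difference between lines (1476) these gave 4709, 4180, 6047 and 3450; leaving out a library gave 0 to 4480. The cause was not tested.

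Replicate numbers gave no pairing by the labels. Deviations of same-numbered libraries correlated at 0.655 between parental SW480 and SW480 with ERB, and at -0.738 and -0.628 between these and parental SW620. With the replicate block 6484 genes were called in SW480, all 122 named genes kept their call, and the difference between lines fell to 354.

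Reversed values were those of POLE (-0.182, -0.19 and -0.182 with the 3 FPKM settings), MT-ND6 with offsets (0.241; 0.625 without parental library I, 0.722 without ERB library II, 0.305 with 6 libraries, 0.229 with the block), HIST1H2AC with offsets (0.313 and 0.043 without those libraries) and COL1A1 (-0.193 and -0.001 likewise). RLE factors, limma-voom and a filter of 1 CPM in 2 libraries kept all 122 calls. With 2 libraries a group, genes at or under 3 reads per library (0.158 to 0.235 CPM) could not be ranked.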
